A study of Mus musculus with 18 samples.

Results

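The genes described here are 10 members of the NRF2 antioxidant pathway, 4 regulators (Nfe2l2, Keap1, Mafg and Bach1) and 6 target genes (Nqo1, Hmox1, Txnrd1, Srxn1, Osgin1 and G6pdx), chosen by symbol from the 21859 rows of a table of read counts per gene. All 10 were found on 1 row each, and all 10 were among the 15944 rows that passed the filter on low counts. The libraries were made from polyA RNA of mouse retinal pigment epithelium (RPE), the pigmented layer that serves the photoreceptors, and fall into 4 groups. Young (7 libraries) and Old (4 libraries) are RPE of young and of aged mice without vector. Old-Control (3 libraries) is RPE of aged mice given AAV2-tTA, an adeno-associated virus that carries the tetracycline-controlled transactivator alone. Old-OSK (4 libraries) is RPE of aged mice that received AAV2-tTA and with it TRE-OSK, the transactivator's target promoter driving the reprogramming factors Oct4 (Pou5f1), Sox2 and Klf4, so that Old-OSK and Old-Control share the tTA vector and its delivery. Ages, strain, doses and times after delivery were not used here, and no label gives the promoter that drives tTA or says that libraries of a group came from separate animals. P-values therefore measure the spread between libraries.

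NRF2, the product of Nfe2l2, is a transcription factor that KEAP1 holds in the cytoplasm and presents to a CUL3 ubiquitin ligase for breakdown. Oxidants and electrophiles modify cysteines of KEAP1, NRF2 then accumulates, pairs with a small MAF protein such as MAFG and binds antioxidant response elements, which the haem-sensitive repressor BACH1 can occupy in its place. Because this control acts largely on the protein, the amount of Nfe2l2 mRNA is not a measure of NRF2 activity. The RPE is exposed to light and oxygen and digests shed photoreceptor outer segments, and NRF2 targets in this tissue reduce quinones (Nqo1), break down haem (Hmox1), recharge thioredoxin (Txnrd1) and peroxiredoxins (Srxn1) and supply NADPH (G6pdx).

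Promoter sequences are shown for Nqo1, the only member called (edgeR adjusted p under 0.05) in Old against Young. They are also shown for Nfe2l2, Srxn1 and G6pdx, which were among the 5 members called higher in Old-OSK than in Young. They span 250 bases before to 50 bases after the RefSeq gene start (build GRCm38.p6, sense strand of the gene) and were matched by symbol for 9 of the 10 members, without Hmox1. Capitals mark the antioxidant response element core TGACNNNGC and the AP-1-like core TGANTCA, each searched on both strands.
Nqo1 (chr8:107403156-107403455, minus strand): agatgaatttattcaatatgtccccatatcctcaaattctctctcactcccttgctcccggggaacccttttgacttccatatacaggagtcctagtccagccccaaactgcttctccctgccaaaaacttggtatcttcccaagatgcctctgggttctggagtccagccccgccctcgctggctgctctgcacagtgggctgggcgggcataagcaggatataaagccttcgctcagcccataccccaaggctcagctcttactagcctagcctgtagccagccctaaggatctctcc
Nfe2l2 (chr2:75704614-75704913, minus strand): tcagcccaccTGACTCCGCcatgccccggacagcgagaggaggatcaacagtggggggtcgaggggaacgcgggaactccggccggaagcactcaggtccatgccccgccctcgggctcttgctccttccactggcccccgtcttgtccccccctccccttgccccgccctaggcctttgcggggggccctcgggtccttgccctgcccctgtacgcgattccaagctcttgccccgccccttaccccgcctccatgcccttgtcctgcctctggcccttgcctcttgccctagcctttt
Srxn1 (chr2:152105274-152105573, plus strand): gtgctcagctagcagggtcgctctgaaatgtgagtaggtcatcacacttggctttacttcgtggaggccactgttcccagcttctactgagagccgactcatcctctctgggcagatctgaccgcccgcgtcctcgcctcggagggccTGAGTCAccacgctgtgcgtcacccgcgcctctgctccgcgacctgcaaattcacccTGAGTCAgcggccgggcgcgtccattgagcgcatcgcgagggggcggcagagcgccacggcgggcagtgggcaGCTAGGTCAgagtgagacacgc
G6pdx (chrX:74428831-74429130, minus strand): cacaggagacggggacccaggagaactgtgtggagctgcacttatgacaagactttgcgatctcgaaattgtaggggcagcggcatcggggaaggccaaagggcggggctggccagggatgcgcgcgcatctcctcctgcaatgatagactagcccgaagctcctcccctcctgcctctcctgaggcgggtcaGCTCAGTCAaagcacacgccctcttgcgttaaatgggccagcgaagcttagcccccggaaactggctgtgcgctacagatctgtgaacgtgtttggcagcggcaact
The TGACNNNGC core occurred once each in the windows of Nfe2l2 (from -240 to -232, with the first transcribed base as 0), Srxn1 (28 to 36), G6pdx (-57 to -49) and Mafg (-222 to -214), and in 1 of the 3 RefSeq starts of Txnrd1 (-92 to -84). Srxn1 held 2 copies of TGAGTCA (-102 to -96 and -45 to -39) and Osgin1 1 copy of TGACTCA (-97 to -91). The Srxn1 copy at -45 to -39 is followed by gc, so it differs from TGACNNNGC only by a G in place of the C. That form was not searched. The windows of Nqo1, Keap1 and Bach1 had neither motif, and bases beyond the windows were not searched. Osgin1, also called higher in Old-OSK than in Young, had no TGACNNNGC match, while Mafg and Txnrd1 had a match and were not called there. Whether the motifs go with the differences was not tested. No TGANTCA match overlapped a TGACNNNGC match. Of 32851 promoter windows of the same length, 12.4% held TGACNNNGC and 7.81% held TGANTCA, so a match in a single window is common.

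Total counts lay between 18104828 and 32348136 per library, and the member with the fewest reads, Osgin1, had at least 287 in every library. Pou5f1 stood at 50.1 to 97.4 CPM (counts scaled to a common library total) in the 4 Old-OSK libraries and at no more than 3.75 CPM in any other library. All 14 RPE markers were detected in every library. No marker of the lists for macrophages, rods, cones, Muller glia, endothelium, stroma, melanocytes and red blood cells was at 0 in any library, so each library also held RNA that these lists mark. On the first principal component (46.5% of the variance) Old replicate 4 (73.2) and Old-Control replicate 2 (61.8) lay among the Old-OSK libraries (45.7 to 96). The names of 6 libraries carry a letter M that the labels do not explain (replicates 5, 6 and 7 of Young, 2 and 3 of Old-Control and 4 of Old-OSK). These had 4040 to 5493 counts on 4 Y-linked genes, against at most 93 in the other 12, so M goes with RNA of males. No Old library has an M, so sex is not balanced between the groups.

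Levels between genes were compared as CPM per kilobase of annotated exon (GENCODE M21, GRCm38). In Young RPE, Nqo1 stood highest at a mean level of 126 CPM per kb. G6pdx followed at 26.9 CPM per kb, then Txnrd1 at 18.7 and Nfe2l2 at 17.8, which lay within their spread of each other. Srxn1 (12), Keap1 (11.9), Mafg (10.6) and Hmox1 (10.6 CPM per kb) were neighbours that did not differ beyond their spread, and Osgin1 (7.07) and Bach1 (4.52 CPM per kb) were lowest. The quinone reductase was thus the most abundant transcript of the 10 in Young, and in Old it was still first at 64.5 CPM per kb, ahead of G6pdx at 35.3. Of the exon length of G6pdx (chrX:74409483-74429194), 13.6% overlaps Ikbkg on the other strand. For Keap1 (chr9:21229730-21239361) 10.9% overlaps the antisense gene Gm16754, and for Mafg (chr11:120625117-120633600) 2.21% overlaps Sirt7. The strand setting of the counting is not given in the sources used here, so reads from these stretches cannot be assigned with certainty. The other 7 members share no exon with another annotated gene.

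**Figure D1:**
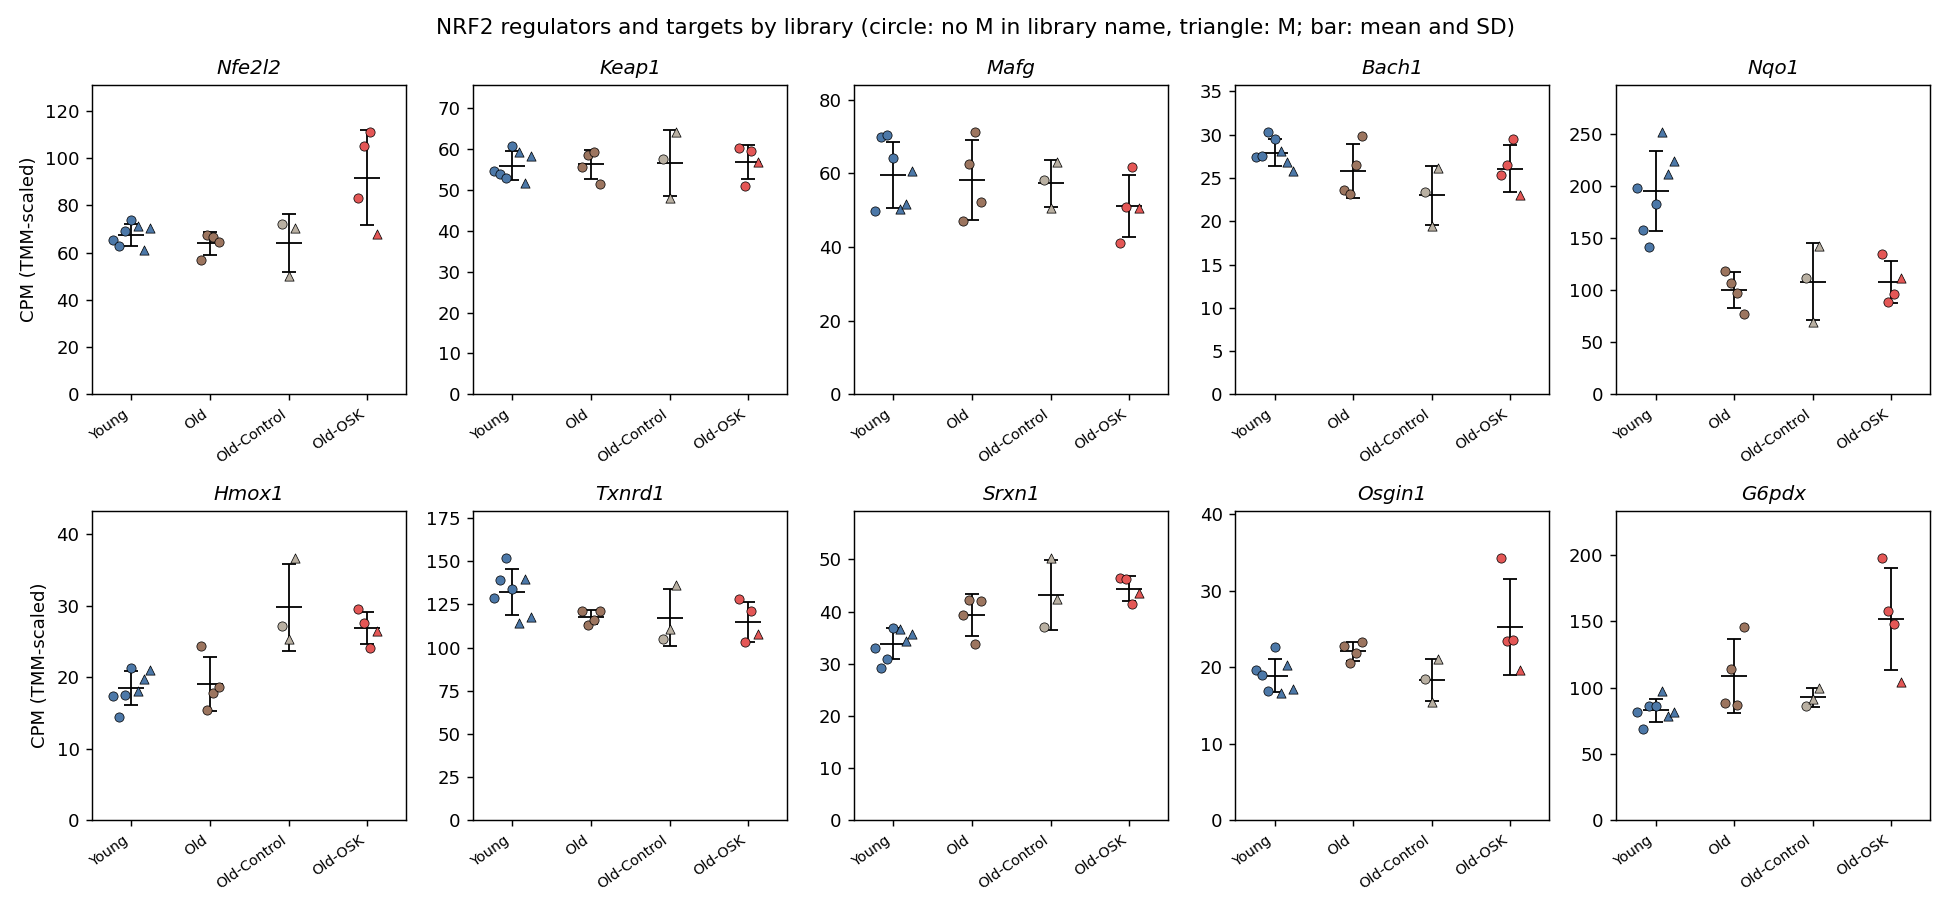
CPM after TMM scaling of each of the 10 genes (vertical axis, from 0) in the 4 groups (horizontal axis). Each point is 1 library, triangles are libraries with M in their name, and bars give the mean and SD. Nqo1 lies lower in all 4 Old libraries (77.7 to 119 CPM) than in all 7 Young libraries (142 to 252 CPM), and G6pdx lies higher in all 4 Old-OSK libraries (104 to 198 CPM) than in all 3 Old-Control libraries (86.3 to 100.4 CPM).

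The comparison of Old with Young asks how the pathway's transcripts differ with age in RPE without vector. Nqo1 was lower in Old, while neither the other 5 targets nor the 4 regulators passed the test. A gene is called here when its adjusted p over all 15944 genes is under 0.05 in edgeR's quasi-likelihood test. Differences are log2 fold changes of the fit. By that rule 1 of the 10 members was called, and 9.56% of all genes tested were (5.4% higher, 4.16% lower), so the count of members is near the background. The median log2 difference of the members was -0.01 and that of all genes 0.00 (-0.00437). Before adjustment 3 members had a p under 0.05, Nqo1, G6pdx and Srxn1, as did 4619 of all 15944 genes, so this count is near the background too.

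Nqo1 encodes NAD(P)H quinone dehydrogenase 1, which reduces quinones by a route that avoids semiquinone radicals, and is widely used as a readout of NRF2. Its lowest, median and highest values in Young were 142, 198 and 252 CPM. The 4 Old libraries had 119, 107, 97.1 and 77.7 CPM. All Old libraries were below all Young libraries, and the means were 196 ± 37.9 CPM in Young (SD, n = 7) and 100.3 ± 17.6 CPM in Old (SD, n = 4). The log2 difference was -0.96 (SE 0.20, 95% interval -1.38 to -0.55, edgeR adjusted p = 0.00828). It was called in each of the 11 fits that left out a library (-1.06 to -0.86, adjusted p = 0.00582 to 0.0438).

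Within Young, the libraries with M had more Nqo1 (212, 224 and 252 CPM) than those without (142, 158, 183 and 198 CPM). Adding M as a term gave Nqo1 a log2 difference of -0.85 (SE 0.20, edgeR adjusted p = 0.0294), and in the libraries without M, 4 Young and 4 Old, it was -0.77 (SE 0.17, adjusted p = 0.0415). Fitted with no library of the other groups, the same 8 libraries gave -0.76 (adjusted p = 0.0581) and no call. The 15 macrophage markers summed to 521 to 691 CPM in Young and 816 to 1307 CPM in Old, without overlap, and 11 of the 15 were called higher. Of the 15, 12 had a positive log2 difference. Csf1r, the most abundant of them, went the other way, with means of 494 CPM in Young and 391 CPM in Old. The 14 RPE markers summed to 42681 to 68278 CPM in Young and 28613 to 49321 CPM in Old, and 3 of the 14 were called lower. The 9 rod markers summed to 145 to 2823 CPM in Young and 1944 to 7027 CPM in Old. In bulk RNA, fewer cells of a type and less RNA per cell cannot be told apart. With the rod score as a covariate Nqo1 stayed called (-0.78, adjusted p = 0.0458). With the macrophage score as a covariate its log2 fold change was 0.33 (SE 0.45, adjusted p = 0.842). That score separates all 7 Young libraries from all 11 others, so its part and that of age cannot be told apart.

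G6pdx encodes the X-linked glucose-6-phosphate dehydrogenase, the entry enzyme of the pentose phosphate pathway and a source of NADPH. Young libraries had 69.0, 81.7 and 97.6 CPM (lowest, median, highest), and Old libraries 88.2, 114, 87.1 and 146 CPM. Old replicates 2 and 4 were above all Young libraries and Old replicates 1 and 3 were within their range. The log2 difference was 0.39 (SE 0.16, edgeR adjusted p = 0.108), and without Old replicate 4 it was 0.22.

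Srxn1, the sulfiredoxin that repairs over-oxidised peroxiredoxins, had 29.1, 34.4 and 36.9 CPM in Young (lowest, median, highest). In Old it had 39.3, 42.3, 33.8 and 42.1 CPM, so 3 of 4 Old libraries were above all Young ones (log2 difference 0.22, SE 0.09, edgeR adjusted p = 0.13).

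The remaining members gave small and uncalled differences in Old against Young. Nfe2l2 had a mean of 67.6 ± 4.66 CPM in Young and 63.9 ± 4.91 CPM in Old (log2 difference -0.08, 95% interval -0.34 to 0.18). Keap1, the NRF2 adaptor, varied least between groups, with means of 55.9 ± 3.51 and 56.2 ± 3.47 CPM and a log2 difference of 0.01 (95% interval -0.16 to 0.18). These intervals bound a change of either regulator with age to less than 0.35 on the log2 scale, without showing that there was none. Mafg, the small MAF partner (-0.03, interval -0.32 to 0.26), and Bach1, the repressor (-0.11, interval -0.32 to 0.09), were alike in that their libraries overlapped. Hmox1 (0.05, interval -0.24 to 0.33), the thioredoxin reductase Txnrd1 (-0.17, interval -0.36 to 0.02) and Osgin1, a growth inhibitor induced by oxidative stress (0.22, interval -0.06 to 0.51), were not called.

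**Figure D2:**
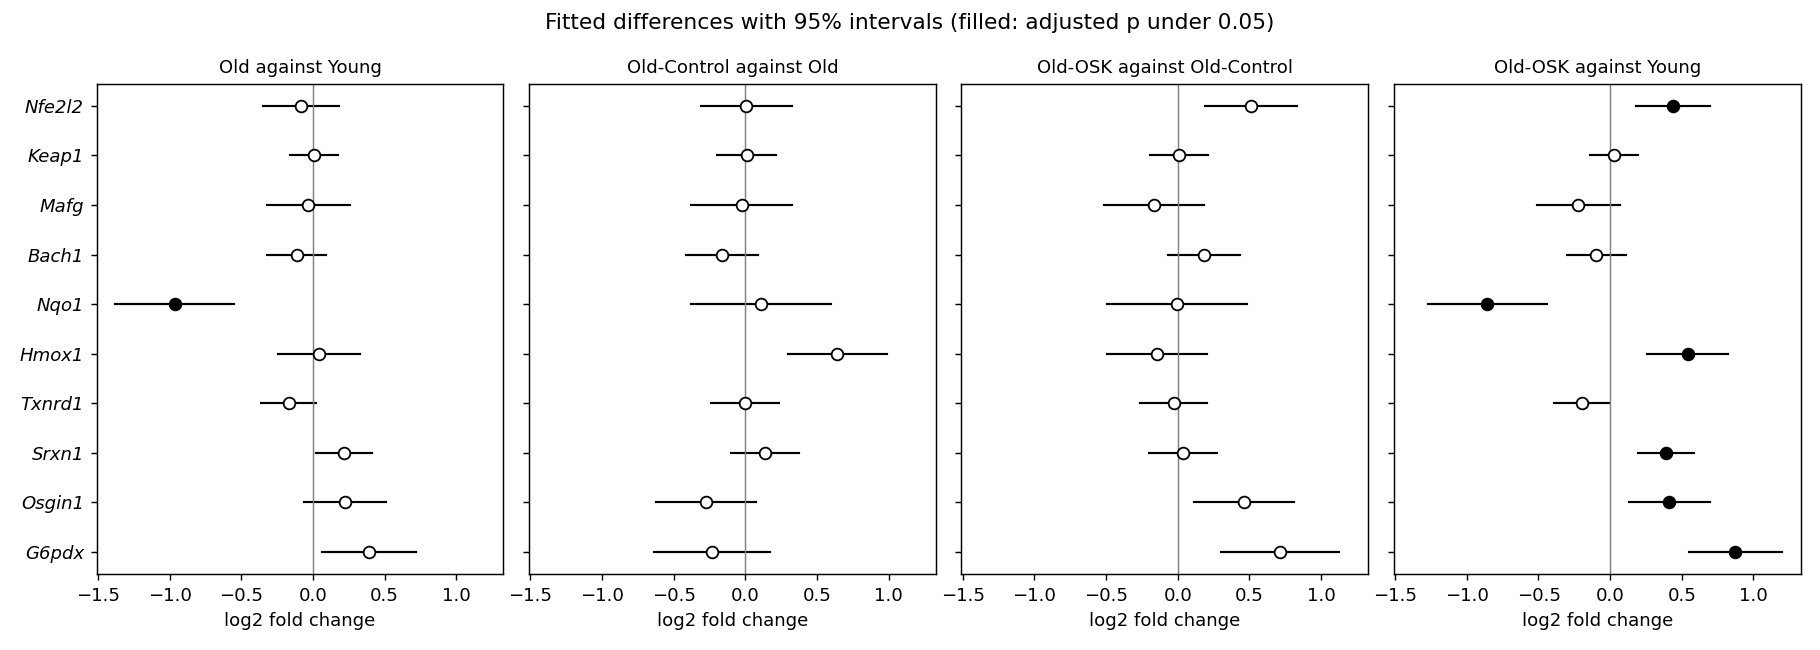
Log2 fold changes (horizontal axis) of the 10 genes in the 4 comparisons, from the fit of all 18 libraries, with 95% intervals as lines and filled points where the adjusted p is under 0.05. Nqo1 is the only filled point in Old against Young (-0.96), none is filled in Old-Control against Old or in Old-OSK against Old-Control, and 6 are filled in Old-OSK against Young.

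Old-Control was compared with Old to see what accompanied the tTA vector alone. No member was called by edgeR (0 of 10; 0% of all genes, 596 of which had an unadjusted p under 0.05), and DESeq2 also called 0 members. Hmox1, 1 of the 10, had an unadjusted p under 0.05. Hmox1 encodes the inducible haem oxygenase, which frees iron, carbon monoxide and biliverdin from haem. The 3 Old-Control libraries had 27.2, 25.4 and 36.7 CPM and the 4 Old libraries 24.4, 15.4, 17.8 and 18.6 CPM. All Old-Control libraries were above all Old ones, with a log2 difference of 0.64 (SE 0.16, edgeR adjusted p = 0.9). In Old-OSK, which shares the vector, Hmox1 had 29.5, 27.6, 24.1 and 26.5 CPM, and 6 of the 7 vector-treated libraries were above all 4 Old libraries. The exception was Old-OSK replicate 3, which lay just under Old replicate 1. The macrophage markers summed to 964 to 1191 CPM in Old-Control and the red blood cell markers to 72.4 to 120 CPM, against 816 to 1307 and 89.4 to 146 CPM in Old, so both ranges overlapped or lay within those of Old. For the other 9 members the log2 fold changes lay between -0.27 (Osgin1) and 0.14 (Srxn1), and the value for Nqo1 was 0.11 (interval -0.38 to 0.60).

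The comparison of Old-OSK and Old-Control asks what differed with TRE-OSK when the tTA vector was present in both. No group received a TRE construct without OSK, so the added construct and the OSK factors cannot be told apart. Nfe2l2, G6pdx and Osgin1 were higher in most Old-OSK libraries. None of the 10 members was called over all genes by edgeR (0 of 10, against 0.728% of all genes, 0.408% higher and 0.32% lower). These 3 had an unadjusted p under 0.05, as did 4194 of all 15944 genes, so 3 of 10 is near the background. DESeq2 called 2 of them, G6pdx and Nfe2l2, in a fit that called 10.7% of all genes. The median log2 fold change was 0.02 over the members and -0.03 over all genes. Equally numbered libraries of these groups deviated from their group means together across genes (r = 0.103, 0.421 and 0.339). No label says what a number marks, and libraries with different numbers were not compared in this way. For numbers 2 and 3 the Old-Control library carries an M and the Old-OSK library does not. A fit of the equally numbered libraries with the number as a block called 0 members and 3.02% of all genes (G6pdx 0.85, adjusted p = 0.057). Without the block it called 1 member, G6pdx (0.86, adjusted p = 0.0332), and 6.49% of all genes.

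G6pdx had 198, 158, 148 and 104 CPM in Old-OSK and 86.3, 91.5 and 100.4 CPM in Old-Control. The groups did not overlap, although Old-OSK replicate 4 was close to the highest control, and the means were 152 ± 38.6 CPM (SD, n = 4) and 92.7 ± 7.16 CPM (SD, n = 3). The log2 difference was 0.71 (SE 0.19, 95% interval 0.30 to 1.12, edgeR adjusted p = 0.072). Of the 7 fits that left out a library, 2 called G6pdx, and the log2 difference ranged from 0.52 to 0.82 (edgeR adjusted p = 0.018 to 0.332). The 2 were those without Old-OSK replicate 4 (0.82, adjusted p = 0.018) and without Old-Control replicate 2 (0.67, adjusted p = 0.0451). Leaving out Old replicate 4 with the latter, an alternative chosen after seeing the data, gave 0.67 (adjusted p = 0.0228). It was not called with M as a term (0.68, adjusted p = 0.163). Of all genes, 11% were called without Old-OSK replicate 4, 17.9% without Old-Control replicate 2 and 23.3% without the latter and Old replicate 4.

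Nfe2l2 had 83.2, 105, 111 and 67.7 CPM in Old-OSK and 72.0, 50.03 and 70.6 CPM in Old-Control. Old-OSK replicates 1, 2 and 3 were above all other 15 libraries of the study, while replicate 4, the one with M, was within their range. The log2 difference was 0.51 (SE 0.15, 95% interval 0.19 to 0.84, edgeR adjusted p = 0.0823), and without Old-OSK replicate 4 it was 0.59 (adjusted p = 0.0209). Without Old-Control replicate 2 it was 0.33, and 1 of the 7 fits that left out a library called Nfe2l2.

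Old-OSK replicate 4 also had the lowest Pou5f1 of the Old-OSK libraries, 50.1 CPM against 66.3, 97.4 and 86.7 CPM in replicates 1, 2 and 3. Its rod markers summed to 14905 CPM, against 2638, 7352 and 2731 CPM in replicates 1, 2 and 3. In Old-Control, replicate 2 had a rod sum of 17639 CPM, against 3223 and 1493 CPM in replicates 1 and 3. The part of Pou5f1 in the levels of Old-OSK replicate 4 was not tested.

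Osgin1 had 34.3, 23.4, 23.5 and 19.7 CPM in Old-OSK and 18.4, 15.5 and 21.1 CPM in Old-Control, and Old-OSK replicate 1 alone was above 24 CPM. Its log2 fold change was 0.46 (SE 0.17, edgeR adjusted p = 0.11), and without Old-OSK replicate 1 it was 0.24. Nqo1, the gene that was lower in Old than in Young, had 135, 88.6, 96.7 and 112 CPM in Old-OSK and 112, 69.2 and 143 CPM in Old-Control. The control libraries spanned the whole range of the Old-OSK ones, and the log2 fold change was 0.00 (-0.00249, SE 0.23, 95% interval -0.49 to 0.49). Without Old-Control replicate 3 it was 0.25 (SE 0.24), and without Old-Control replicate 2 it was -0.27 (SE 0.23). Srxn1 (0.04, interval -0.20 to 0.28), Keap1 (0.01, interval -0.20 to 0.21) and Txnrd1 (-0.03, interval -0.26 to 0.21) had the narrowest intervals around 0. Bach1 (0.18), Mafg (-0.17) and Hmox1 (-0.15) were not called and their libraries overlapped. The 14 RPE markers summed to 17153 to 31412 CPM in Old-OSK and to 21873 to 63936 CPM in Old-Control. The 11 immediate early genes, a possible but not the only sign of tissue handling, summed to 224 to 420 and 127 to 262 CPM. The part of the RPE markers and immediate early genes in the differences of G6pdx and Nfe2l2 was not tested. The macrophage score (mean log2 CPM of the 15 markers) lay at 4.11 to 4.36 in Old-Control and 4.52 to 4.93 in Old-OSK, without overlap. Summed, these markers overlapped (964 to 1191 and 916 to 1093 CPM). Of the 15, 13 had a positive log2 difference, 5 an unadjusted p under 0.05, and 0 were called. With the score as a covariate neither G6pdx nor Nfe2l2 was called, where 0.0941% of all genes were.

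Old-OSK and Young differ in age, in vector and in OSK, and their comparison shows where the members stood relative to young tissue after treatment. Here 6 of the 10 members were called, 5 higher and 1 lower, while 46.4% of all genes were called, 25.1% up and 21.4% down. The same Young libraries serve in the comparison with Old and the same Old-OSK libraries in that with Old-Control, so these values are not independent of those above. Between the same groups 13 of 14 RPE markers were called lower, 9 of 9 rod markers higher and 12 of 15 macrophage markers higher. Of the macrophage markers 1 was called lower, Csf1r (means of 494 CPM in Young and 198 CPM in Old-OSK). The part of the RPE and rod markers in the members' differences was tested only with the rod score as a covariate, which left 6 members called and 27.8% of all genes.

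G6pdx was higher than in Young by 0.87 on the log2 scale (SE 0.15, edgeR adjusted p = 0.000463), with all 4 Old-OSK libraries above all 7 Young ones.

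Hmox1 was higher by 0.54 (SE 0.13, adjusted p = 0.00399), from a Young range of 14.5 to 21.3 CPM to 24.1 to 29.5 CPM, again without overlap.

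Srxn1 was higher by 0.39 (SE 0.09, adjusted p = 0.00302), with 46.4, 46.2, 41.4 and 43.6 CPM in Old-OSK, all above the Young maximum of 36.9 CPM. Its step was spread over the comparisons: the mean level was 33.8 CPM in Young, 39.3 in Old, 43.2 in Old-Control and 44.4 in Old-OSK.

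Nfe2l2 was higher by 0.44 (SE 0.12, edgeR adjusted p = 0.00829) with 1 overlapping library, Old-OSK replicate 4, and Osgin1 by 0.41 (SE 0.13, adjusted p = 0.0186). Without Old-OSK replicate 1 Osgin1 was not called (0.20, adjusted p = 0.2), nor without Young replicate 5 (0.36, adjusted p = 0.0529).

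Nqo1 remained below Young in all 4 Old-OSK libraries, with a log2 difference of -0.86 (SE 0.20, edgeR adjusted p = 0.00251). The 4 treated libraries (88.6 to 135 CPM) did not reach the Young minimum of 142 CPM.

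Txnrd1 was not called (-0.20, adjusted p = 0.0862; it passed without Young replicate 5, without Young replicate 7 or without Old-OSK replicate 1, adjusted p = 0.0418, 0.0498 and 0.0394). Keap1 (0.03, interval -0.14 to 0.19), Mafg (-0.22) and Bach1 (-0.10) were not called either.

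With the macrophage score as a covariate, 0 members were called between Old-OSK and Young and the log2 difference of Nqo1 was 0.83 (adjusted p = 0.607). The score lay at 2.17 to 2.93 mean log2 CPM in Young and 4.52 to 4.93 in Old-OSK, so it cannot be told apart from the groups. In the libraries without M 6 members were called, where 36% of all genes were.

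A further 52 genes of the pathway (17 regulators and partners, 35 targets) were all tested. In Old against Young 7 were called higher and 4 lower (11 of 52, against 9.56% of all genes), with a median log2 difference of -0.02. Among the 17 regulators, 3 were called higher and 0 lower, although only 5 of the 17 had a positive log2 difference and their median was -0.07. The 3 called were Maff and Mafk, small MAF partners like Mafg, and Nfe2l3, a relative of Nfe2l2 whose product is held at the endoplasmic reticulum. Mafk, Nfe2l3, Gclm, Gsta4 and Abcc3 are named after their values were seen. Of the 11 calls, 3 were also made with M as a covariate and 3 with the rod score (Ugdh, Gclc and Maff in both), and 2 in the libraries without M (Ugdh and Gclc). With the macrophage score, which separates Young from Old, 0 of the 11 were called, with log2 differences of -0.06 for Ugdh (adjusted p = 0.94), -0.27 for Gclc (adjusted p = 0.743) and -0.16 for Idh1 (adjusted p = 0.9).

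Maff had 1.35, 2.57 and 4.60 CPM in Young (lowest, median, highest) and 3.59, 9.88, 6.43 and 13.7 CPM in Old (log2 difference 1.54, SE 0.33, edgeR adjusted p = 0.0123). Old replicate 1 lay within the Young range, and without Old replicate 4 Maff was not called (1.19, adjusted p = 0.0788), nor in the libraries without M (adjusted p = 0.0981).

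Mafk differed by 0.93 (adjusted p = 0.0264) and was called in 6 of the 11 leave-one-out fits (0.70, adjusted p = 0.155, without Old replicate 4). Nfe2l3 had one of 1.13 (adjusted p = 0.0269) and was called in 8 of 11 (0.78, adjusted p = 0.174, without Old replicate 4).

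The immediate early genes, of which 4 of 11 were called higher in Old, summed to 68.9 to 369 CPM in Young and 104 to 380 CPM in Old. Their part in the rise of the small MAF genes was not tested.

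Of the 8 glutathione and thioredoxin genes, 2 were called lower, both subunits of the enzyme that starts glutathione synthesis, and 0 higher. A positive log2 difference was found for 3 of the 8. Gclc, the catalytic subunit of glutamate-cysteine ligase, had 73.4, 75.6 and 90.0 CPM in Young (lowest, median, highest) and 67.0, 53.4, 54.8 and 45.3 CPM in Old. All Old libraries lay below all Young ones, and the log2 fold change was -0.52 (SE 0.09, edgeR adjusted p = 0.00451), called in all 11 fits without a library. Gclm, the modifier subunit, fell by 0.38 (adjusted p = 0.0347), a call that held in 4 of those 11 fits (lost, for one, without Old replicate 4, adjusted p = 0.153) and not with median-ratio scaling (adjusted p = 0.0517).

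Ugdh, which makes the UDP-glucuronate used in conjugation, had the lowest p of the 52 genes. It went from 86.8 to 116 CPM in Young to 67.0, 76.2, 72.0 and 69.5 CPM in Old (-0.49, SE 0.07, adjusted p = 0.00124), was called in all 11 fits and was lower in every Old library than in any Young one. Idh1, an NADP-dependent isocitrate dehydrogenase, fell by 0.47 (adjusted p = 0.0171), and was not called without Old replicate 2 (adjusted p = 0.0531) or Old replicate 3 (adjusted p = 0.0543).

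Of the 16 detoxification and efflux genes, Cbr3, a carbonyl reductase (0.45, adjusted p = 0.0209), Abcc3, an organic anion exporter at no more than 3.81 CPM in any library (0.94, adjusted p = 0.0355), and Gsta4 (1.29, adjusted p = 0.0375) rose, as did Blvrb, a biliverdin reductase (0.57, adjusted p = 0.0264). Without Old replicate 4 none of these 4 was called (edgeR adjusted p = 0.072 for Cbr3, 0.154 for Abcc3, 0.257 for Gsta4 and 0.156 for Blvrb). Abcc3 was called in 5 of the 11 fits and Gsta4 in 2.

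**Figure D3:**
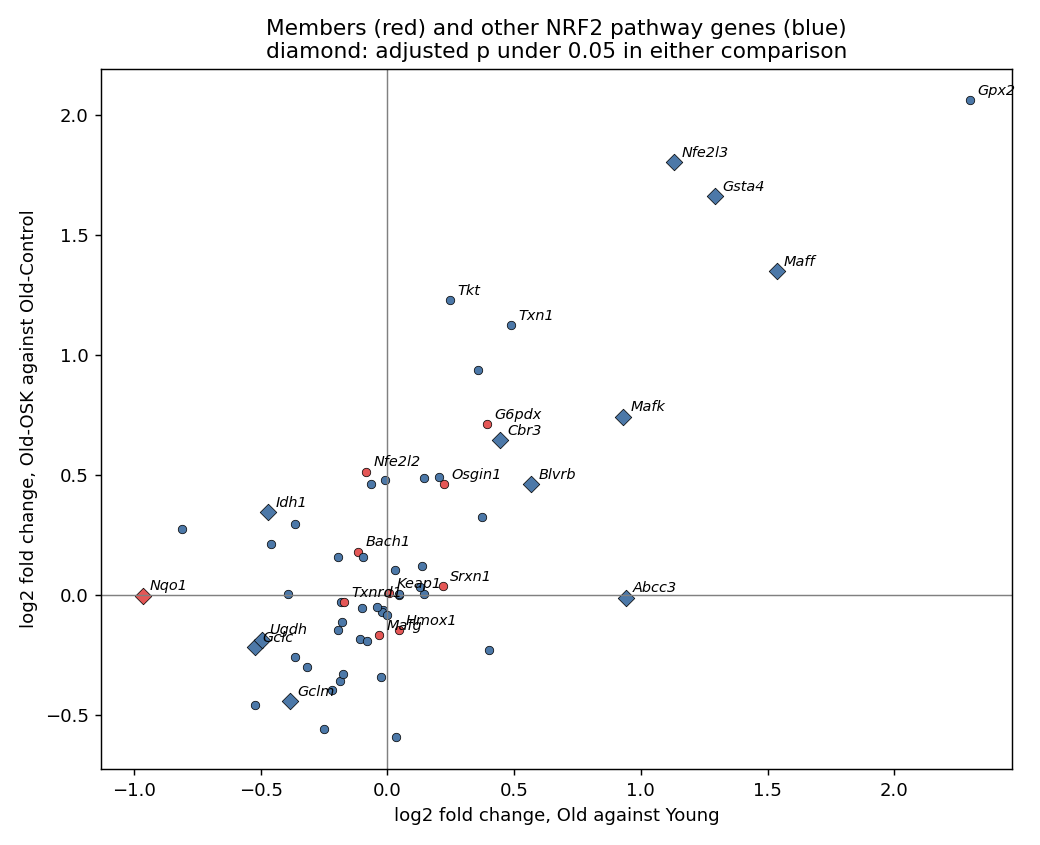
Log2 fold change in Old against Young (horizontal axis) and in Old-OSK against Old-Control (vertical axis) for the 10 members (red) and 52 other pathway genes (blue). Diamonds mark genes called in either comparison. Nqo1 lies at the left edge at a vertical value of 0.00, while Nfe2l3 and Maff lie at the upper right. The comparisons share no library.

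In Old-OSK against Old-Control 2 of the 52 genes were called, both higher (0.728% of all genes were called). An unadjusted p under 0.05 was found for 21 of the 52 and for 4194 of all 15944 genes. Cbr3 had between 16.3 and 20.8 CPM in the 4 Old-OSK libraries and 11.03, 11.5 and 11.9 CPM in Old-Control, with all Old-OSK libraries above every other library of the study. Its log2 fold change was 0.65 (SE 0.13, edgeR adjusted p = 0.0333). In the equally numbered libraries it was not called without the replicate block (0.69, adjusted p = 0.0527) or with it (0.68, adjusted p = 0.0851), and 2 of the 7 leave-one-out fits called it (adjusted p = 0.211 when Old-Control replicate 1 was left out).

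Nfe2l3 had 54.7, 59.9, 45.3 and 17.99 CPM in Old-OSK and 10.3, 13.6 and 14.2 CPM in Old-Control (log2 difference 1.80, SE 0.38, adjusted p = 0.035). Old-OSK replicate 4 was again the lowest of its group. The call held in 2 of the 7 fits (adjusted p = 0.231 when Old-Control replicate 1 was left out).

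Txn1, the thioredoxin that Txnrd1 reduces, had 162, 126, 116 and 74.3 CPM in Old-OSK and 44.6, 68.5 and 51.5 CPM in Old-Control. It did not pass (1.12, SE 0.27, adjusted p = 0.0594), but did without Old-OSK replicate 4 (1.26, adjusted p = 0.0149) and without Old-Control replicate 2 (1.28, adjusted p = 0.0123). These were 2 of the 7 leave-one-out fits, in which the log2 difference fell to 0.90 and the edgeR adjusted p reached 0.332.

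Maff (1.35, adjusted p = 0.0895) and Gclm (-0.44, adjusted p = 0.0783) were not called, although the libraries of the groups did not overlap for either gene. Maff passed without Old-OSK replicate 4 (1.45, adjusted p = 0.0496), 1 of the 7 leave-one-out fits (edgeR adjusted p up to 0.353). It also passed in the equally numbered libraries, both without the replicate block (1.49, adjusted p = 0.029) and with it (1.46, adjusted p = 0.0471). Gclm passed without Old-Control replicate 2 (-0.57, adjusted p = 0.014), also 1 of the 7 fits (edgeR adjusted p up to 0.333).

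The 52 genes gave 0 calls in Old-Control against Old by edgeR, with 0 at an unadjusted p under 0.05, and 16 higher and 15 lower calls in Old-OSK against Young, where 46.4% of all genes were called.

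**Figure D4:**
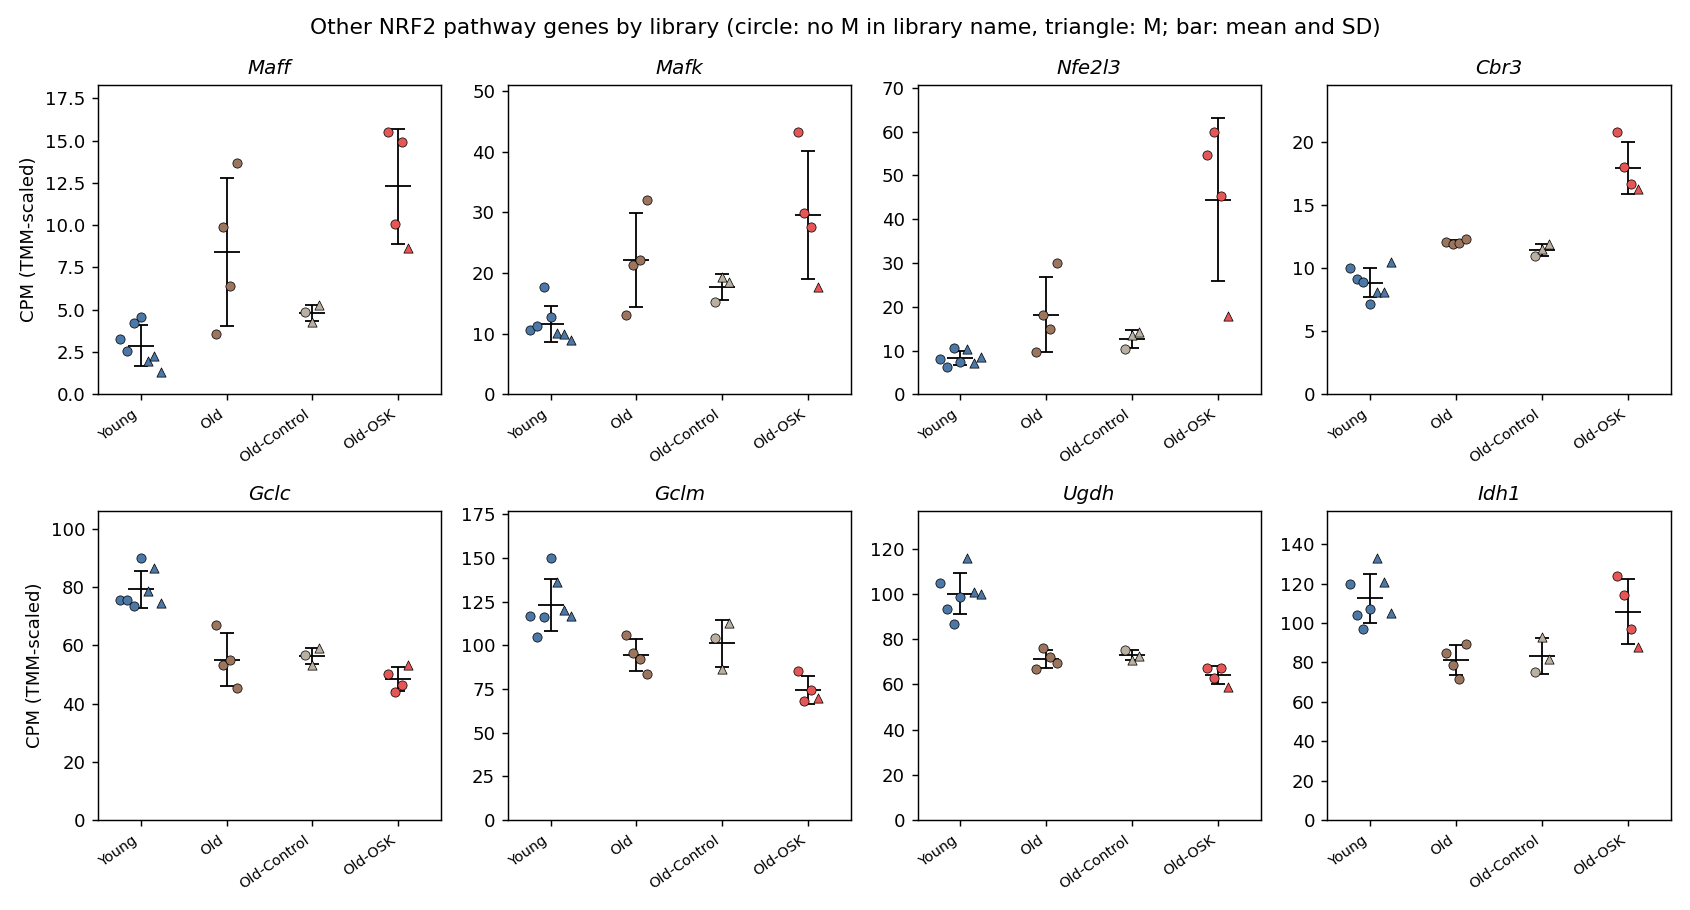
CPM after TMM scaling of 8 other pathway genes (vertical axis, from 0) in the 4 groups (horizontal axis). Each point is 1 library, triangles are libraries with M in their name, and bars give the mean and SD. Cbr3 lies between 16.3 and 20.8 CPM in Old-OSK and at no more than 12.3 CPM in the other groups, and Gclc and Ugdh are lower in all Old libraries than in all Young ones.

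The tested genes whose log2 CPM followed Nqo1 most closely over the 18 libraries were Gga2 (Pearson r 0.943), Reep5 (0.936) and Itgb5 (0.932), the last of which encodes an integrin subunit that RPE uses to bind outer segments. After the group means were removed these values were 0.826, 0.822 and 0.81, so they also shared differences between libraries of 1 group. The closest to Hmox1 were Map7d1 (0.817), Porcn (0.815) and Crcp (0.812), and after removal of the group means 0.398, 0.672 and 0.433. The closest to Nfe2l2 were Vat1 (0.848), Lap3 (0.847) and Fetub (0.841). These are descriptions of the highest values among the 15944 tested genes, over libraries that share their scaling, and no other member was among them. Within the 10 members the highest correlations were between Osgin1 and G6pdx (0.713) and between Srxn1 and G6pdx (0.703), and after removal of the group means they were 0.455 and 0.5.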

How the data were processed

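Raw read counts for 18 libraries, deposited by the authors in 1 table, came from SMART-Seq v4 cDNA and Nextera XT libraries per the labels' protocols. STAR 2.7.1a and featureCounts 1.6.2 were used per the submitters' processing notes, which list human (GRCh38, hg38) and mouse (GRCm38, mm10) builds without their roles. Annotation and strand setting are not given in the sources used here. The 21859 rows were filtered with filterByExpr (minimum count 10, minimum total 15), which left 15944, and TMM factors were computed. A single fit of the 18 libraries used 4 group means (edgeR 4.0.16, glmQLFit and glmQLFTest, R 4.3.3), with Benjamini-Hochberg adjustment over all rows tested. Intervals are 95% from the fit. The script was tested on simulated data. No 2 libraries of a group were alike within counting error (chi-square, per gene, 21.2 or more). Counting error alone is a lower limit, since PCR copies were counted.

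The members and gene lists were chosen with earlier results of these data known. Named beside the members were the 6 other pathway genes with the lowest p among those called in Old against Young, the 3 with the lowest p in Old-OSK against Old-Control, and the 3 tested genes with the highest Pearson r to Nqo1, Hmox1 and Nfe2l2 over the 18 libraries. The macrophage and rod scores are means of log2 CPM (prior count 2). Libraries of Old-OSK and Old-Control with the same number deviated from their group means together (r = 0.103, 0.421 and 0.339 across genes), and no label says what a number marks. Alternatives were median-ratio scaling, other filters, DESeq2 1.42.0, covariates, the 2 compared groups alone, the replicate block and leaving out libraries.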

Additional observations from a re-analysis of the deposited data

How the results depend on the processing

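Between Old and Young, 1 member (Nqo1) was called under every alternative except 3, each of which called 0: the macrophage score as a covariate, the equally numbered libraries alone, and the replicate block on those libraries (Nqo1 -0.77, adjusted p = 0.162; without the block -0.76, adjusted p = 0.0581). The equally numbered libraries hold only 8 of the 11 libraries. Between Old-OSK and Old-Control, where 0 members were called, DESeq2 called 2, the equally numbered libraries without the block 1, and the fit without Old replicate 4 and Old-Control replicate 2 together, chosen after seeing the data, 1; leaving out single libraries gave 0 to 2, and the replicate block 0. Of all genes DESeq2 called 10.7%, the equally numbered libraries 6.49% without the block and 3.02% with it, and the fit without both libraries 23.3%. Against the same libraries without it, the block ended the calls of G6pdx (adjusted p = 0.0332 without, 0.057 with) and Txn1 (0.0292 without, 0.0501 with) and changed no other call of the genes named there. Old-OSK against Young had 5 to 7 calls except with the macrophage score (0). There the deviations of equally numbered libraries from their group means had r of 0.0209 to 0.352 across genes. The block called Mafg lower (-0.34, adjusted p = 0.0234, against 0.102 without it). It did not call Nfe2l2 (0.39, adjusted p = 0.0718, against 0.0441 without it) or Osgin1 (0.32, adjusted p = 0.167, against 0.156 without it). In Old against Young, where those r lay between -0.193 and 0.144, 0 of the 11 other pathway genes were called with the block and 1 (Ugdh) without it. In the same comparison Gclc had an adjusted p of 0.244 with the block and 0.0932 without it. Old-Control against Old had 0 member calls under each alternative run. The cause of these shifts was not tested. The differences that changed sign, on the log2 scale, were as follows. In Old against Young they were 0.10 for Nfe2l2, 0.33 for Nqo1, 0.18 for Gclm and -0.0461 for Abcc3 with the macrophage score as a covariate, then 0.0138 for Nfe2l2 and 0.0165 for Mafg with the rod score as a covariate, then 0.0311 for Mafg with Old replicate 4 and Old-Control replicate 2 left out together. In Old-OSK against Old-Control they were -0.12 for Keap1 with Old replicate 4 and Old-Control replicate 2 left out together, then 0.000890 for Nqo1 with median-ratio scaling, then 0.00232 for Nqo1 with no filter on low counts. There they were also 0.000891 for Nqo1 with DESeq2, then 0.0896 for Nqo1 with M as a covariate, then 0.36 for Nqo1 with the macrophage score as a covariate. There they were also 0.0543 for Nqo1 with the rod score as a covariate, then 0.0195 for Nqo1 and 0.00220 for Txnrd1 with the replicate block. In Old-Control against Old they were -0.00598 for Nfe2l2 and -0.00707 for Keap1 with median-ratio scaling, then -0.0110 for Nfe2l2 and -0.0118 for Keap1 with no filter on low counts, then -0.00647 for Nfe2l2 and -0.00733 for Keap1 with DESeq2. There they were also -0.0119 for Nfe2l2, -0.0500 for Keap1 and -0.0636 for Nqo1 with the replicate block, then -0.0404 for Keap1, -0.00633 for Nqo1 and 0.00265 for Txnrd1 with the equally numbered libraries alone, then 0.0658 for Mafg, -0.0401 for Nqo1 and 0.0451 for Txnrd1 with M as a covariate. There they were also 0.00527 for Mafg, 0.0185 for Bach1 and 0.0445 for Txnrd1 with Old replicate 4 and Old-Control replicate 2 left out together, then 0.00295 for Txnrd1 with the rod score as a covariate, then 0.000359 for Txnrd1 with the compared groups alone. In Old-OSK against Young they were 0.83 for Nqo1 with the macrophage score as a covariate. With single libraries left out, the ranges that spanned 0 were -0.0175 to 0.0481 for Keap1, -0.14 to 0.0560 for Mafg and -0.10 to 0.13 for Hmox1 in Old against Young. They were -0.12 to 0.11 for Keap1, -0.27 to 0.25 for Nqo1, -0.28 to 0.0329 for Hmox1, -0.12 to 0.0911 for Txnrd1 and -0.0626 to 0.13 for Srxn1 in Old-OSK against Old-Control. They were -0.0830 to 0.16 for Nfe2l2, -0.0899 to 0.12 for Keap1, -0.11 to 0.0885 for Mafg, -0.15 to 0.35 for Nqo1 and -0.12 to 0.0727 for Txnrd1 in Old-Control against Old. They were -0.0298 to 0.0783 for Keap1 in Old-OSK against Young. No difference that changed sign was called under the alternative that turned it. The lowest count of a member was 287, and the groups hold 3 to 7 libraries. M is absent from Old, the macrophage score separates Young from all other groups, and the labels used here give no batch.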
